A study of Homo sapiens with 8 samples.

Results

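The condensin and cohesin genes examined here are 10 of the 78932 genes in the deposited count tables, and all 10 passed the filter on low counts. They were listed by name, as subunits of condensin I, condensin II and the cohesin core, with earlier results of these data known. SMC2 and SMC4 encode the paired ATPases that both condensins share, and NCAPD2, NCAPG and NCAPH the remaining subunits of condensin I. NCAPD3 and NCAPG2 encode subunits of condensin II, whose further subunit NCAPH2 is not among the 10. SMC1A, SMC3 and RAD21 encode the core of cohesin.

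RNA came from HCT116 cells, a human colorectal cancer line, in which NUDT21 carries a dTAG degradation tag. All 8 libraries were from cells given JTE-607, an inhibitor of the pre-mRNA cleavage nuclease encoded by CPSF3. Of these, 4 were from cells that also received DMSO, the solvent control, and 4 from cells that also received dTAGV1, a degrader that recruits a ubiquitin ligase to the tag. Both groups therefore share the tag and JTE-607, and an effect of dTAGV1 without JTE-607 was not measured. Doses, treatment times, the number of clones and whether libraries came from separate cultures are not given in the sources used here, so p-values measure the spread between these libraries, which may be technical. The comparison asks which RNA levels differ with dTAGV1, which is meant to degrade the tagged NUDT21 protein, in cells whose cleavage nuclease is inhibited as well.

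Libraries held 3447842 to 4291256 reads counted to genes on the sense strand, and the 10 genes had 58 to 2549 counts in each library. NUDT21, which encodes the small subunit of the cleavage factor CFIm, was lower in every dTAGV1 library than in every DMSO library (log2 fold change -1.95). Of 8 epithelial markers, 7 passed the filter and VIL1 stayed below 1 CPM in both group means. Of 7 immune, endothelial and fibroblast markers, 6 stayed below 1 CPM in both group means, and COL1A1 had 17.3 and 13.8 CPM. CPM denotes counts per 1000000 of the library after TMM scaling. Reads in this assay start from the 3′ ends of transcripts, so no correction for length was applied and levels are not compared between genes.

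Condensins and cohesin are ring-shaped complexes of the SMC (structural maintenance of chromosomes) family, which enclose and extrude loops of DNA. In each ring a pair of long SMC ATPases is closed by a kleisin subunit: NCAPH in condensin I, NCAPH2 in condensin II and RAD21 in mitotic cohesin. Condensin I gains access to chromosomes after the nuclear envelope breaks down, condensin II is nuclear through the cell cycle, and both compact mitotic chromosomes. Cohesin holds sister chromatids together from S phase to anaphase and forms chromatin loops in interphase. Many mitotic genes carry a cell cycle homology region (CHR) in their promoters, through which the DREAM and MuvB complexes restrict their transcription to late cell cycle phases.

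With dTAGV1, the RNA of 8 of the 10 genes fell and that of none rose (adjusted p under 0.05 by the quasi-likelihood test of edgeR, Benjamini-Hochberg adjusted over all 12618 tested genes). Among all tested genes, 28.5% fell and 29.4% rose. The median log2 fold change of the 10 genes was -0.90, against 0.01 over all tested genes. The fall was more than 2-fold for NCAPH, NCAPG2, NCAPG and NCAPD2, 4 of 10 genes, where 9.23% of tested genes fell as much. For 7 of the 10, every dTAGV1 library lay below every DMSO library, which held for 25.1% of tested genes. SMC3 and RAD21 of cohesin were the 2 genes that did not pass the test. In bulk RNA, fewer cells that express a gene and less RNA per cell cannot be told apart. The values are also shares of the counted reads, so a change in the total RNA of the cells was not measured.

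**Figure D1:**
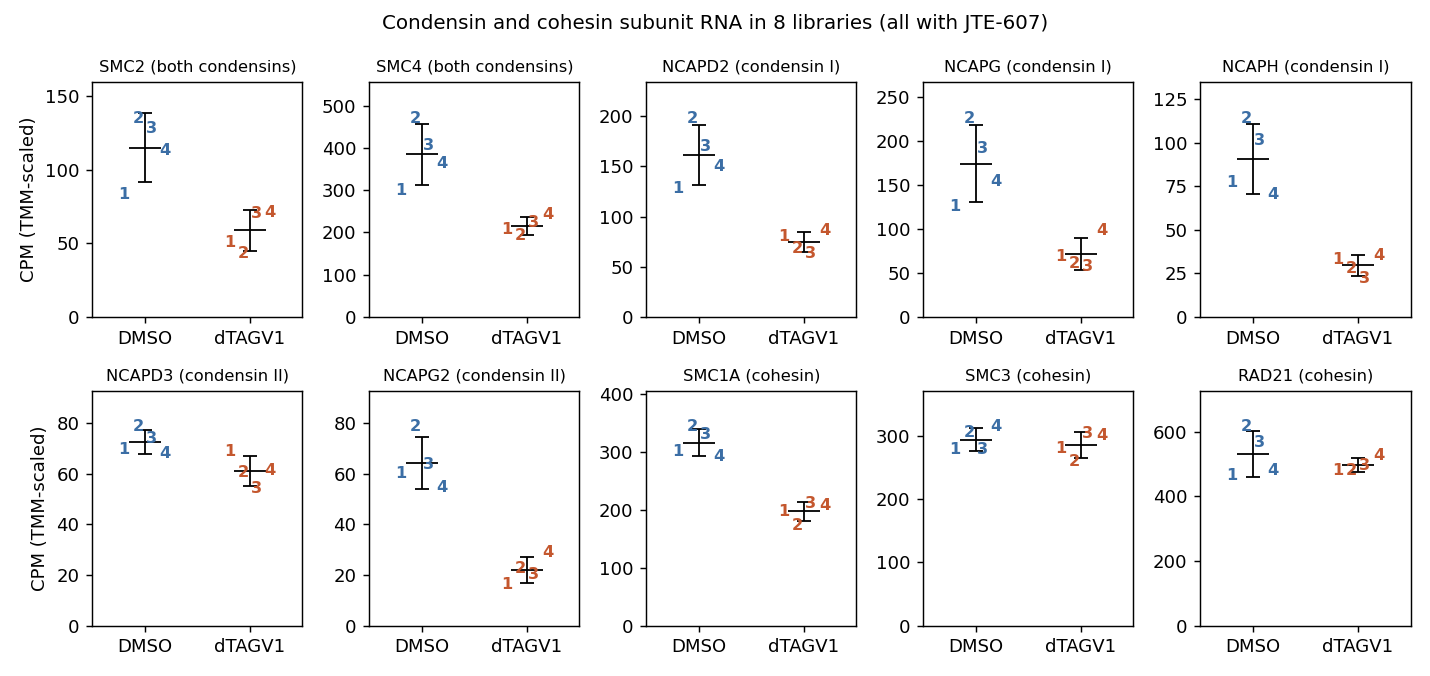
Expression in CPM (vertical axis, from 0, TMM-scaled) of each of the 10 genes in the DMSO and dTAGV1 libraries. Numerals stand at the value of the replicate they number, and bars show the mean and SD of 4 libraries. The groups are apart in 7 panels and overlap for NCAPD3, SMC3 and RAD21.

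The promoters of these genes are shown because most of the genes fell together. RefSeq windows from 250 bases before to 50 after the transcription start (build GRCh38.p14) were found for 9 of the 10 genes, in 13 windows, since some genes have more than 1 start. RAD21 and NCAPH2 had no entry. The CHR hexamer TTTGAA, searched on both strands, was present in at least 1 window of 7 genes: SMC2, SMC4, NCAPD2, NCAPD3, NCAPG, NCAPG2 and SMC3. It was in 7 of these 13 windows and in 15.2% of all 35116 windows. Below are 60 bases, 5′ to 3′ on the strand of the gene, around the hexamer where it lies wholly before the start. Capitals mark the hexamer or its reverse complement, TTCAAA.
NCAPG (chr4:17810917-17810976, plus strand): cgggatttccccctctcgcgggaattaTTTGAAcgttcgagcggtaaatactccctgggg
NCAPD2 (chr12:6493930-6493989, plus strand): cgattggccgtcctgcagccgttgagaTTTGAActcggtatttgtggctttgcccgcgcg
SMC4 (chr3:160399548-160399607, plus strand): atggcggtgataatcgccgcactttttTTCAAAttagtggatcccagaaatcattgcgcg
SMC3 (chr10:110567517-110567576, plus strand): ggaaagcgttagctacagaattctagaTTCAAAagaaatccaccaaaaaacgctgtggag
The hexamer begins 35 bases before the start in NCAPG, 75 in SMC4, 145 in NCAPD2 and 151 in SMC3. SMC3, which did not pass the test, thus held it, whereas NCAPH and SMC1A, which fell, did not in these windows. The CCAAT box (CCAAT, both strands) was in windows of NCAPD2, NCAPD3 and NCAPH, or 3 of 13 windows, and in 34.6% of all windows. The E2F-like heptamer GCGGGAA (both strands) was in windows of NCAPG, NCAPD3 and SMC1A, again 3 of 13, and in 6.55% of all. A match describes the sequence only.

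All 3 condensin I genes fell by more than 2-fold in the estimates. NCAPH (ENSG00000121152; GRCh38 chromosome 2, 96335787 to 96373845, plus strand), the kleisin that closes the condensin I ring, had the most negative value of the 10. It was at 77.1, 114, 101 and 70.2 CPM in DMSO replicates 1 to 4 and at 33.2, 27.5, 22.1 and 35.2 CPM in dTAGV1 replicates 1 to 4. The lowest DMSO library exceeded the highest dTAGV1 library 1.99-fold. Means were 90.4 ± 20.2 and 29.5 ± 5.92 CPM (SD, n = 4 each), and edgeR put the log2 fold change at -1.61 (standard error, SE, 0.17, Benjamini-Hochberg adjusted p = 1.67e-06). Of all tested genes, 3.07% had a lower log2 fold change.

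NCAPG (ENSG00000109805; chromosome 4, 17810902 to 17844862, plus strand) encodes a HEAT-repeat subunit of condensin I. Its DMSO libraries ranged most among the 10 genes, at 126, 226, 192 and 154 CPM, and its dTAGV1 libraries were at 68.9, 60.4, 57.7 and 97.9 CPM. Replicate 1 was lowest with DMSO and replicate 4 highest with dTAGV1, and the groups stayed apart. It fell by 1.28 on the log2 scale (SE 0.24, edgeR, Benjamini-Hochberg adjusted p = 0.0022), the largest standard error of the 10. NCAPD2 (ENSG00000010292; chromosome 12, 6493356 to 6531955, plus strand), the other HEAT-repeat subunit, was at 128, 198, 170 and 150 CPM with DMSO and at 80.5, 68.3, 63.6 and 85.6 CPM with dTAGV1. The groups did not overlap, and NCAPD2 had a log2 fold change of -1.11 (SE 0.13, edgeR, Benjamini-Hochberg adjusted p = 1.23e-06). NCAPD2 overlaps MRPL51 on the opposite strand. Counted irrespective of strand, NCAPD2 kept only 2.24 to 10.3 CPM per library, against 63.6 to 198 CPM on the sense strand. On that small remainder its log2 fold change was -0.66 (edgeR, Benjamini-Hochberg adjusted p = 0.0411).

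Both SMC subunits common to the condensins fell, by less than 2-fold. SMC2 (ENSG00000136824; chromosome 9, 104094260 to 104141417, plus strand) was at 82.8, 135, 128 and 113 CPM in DMSO replicates 1 to 4 and at 50.5, 42.9, 70.4 and 71 CPM in dTAGV1 replicates 1 to 4. Its lowest DMSO library was 1.17-fold above its highest dTAGV1 library, the narrowest gap of the 7 genes whose groups did not overlap. SMC2 thus fell, at a log2 fold change of -0.96 (SE 0.19, edgeR, Benjamini-Hochberg adjusted p = 0.00188). SMC4 (ENSG00000113810; chromosome 3, 160399274 to 160434962, plus strand), which pairs with SMC2, was at 300, 471, 406 and 364 CPM with DMSO and at 208, 192, 223 and 243 CPM with dTAGV1. Replicate 1 was again the lowest of the DMSO libraries for both genes. SMC4 fell by 0.83 on the log2 scale (SE 0.12, edgeR, Benjamini-Hochberg adjusted p = 2.4e-05).

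Subunits of condensin II moved unequally. NCAPG2 (ENSG00000146918; chromosome 7, 158631311 to 158704829, minus strand), its HEAT-repeat subunit G2, was at 60.1, 78.4, 63.5 and 54.4 CPM with DMSO and at 16.4, 22.4, 20 and 28.9 CPM with dTAGV1. The lowest DMSO library lay 1.88-fold above the highest dTAGV1 library. It fell by 1.54 on the log2 scale (SE 0.15, edgeR, Benjamini-Hochberg adjusted p = 8.9e-09). NCAPD3 (ENSG00000151503; chromosome 11, 134150119 to 134225454, minus strand), the HEAT-repeat subunit D3, was at 69.4, 78.4, 73.9 and 68 CPM with DMSO and at 68.6, 60.4, 54.2 and 61.3 CPM with dTAGV1. The groups overlapped through dTAGV1 replicate 1, which exceeded DMSO replicate 4. The fall was small, at a log2 fold change of -0.24 (SE 0.10, edgeR, Benjamini-Hochberg adjusted p = 0.0303). This call was lost with DESeq2 (log2 fold change -0.26, Benjamini-Hochberg adjusted p = 0.0512). It was also lost in edgeR without DMSO replicate 2 (Benjamini-Hochberg adjusted p = 0.0976), without DMSO replicate 3 (0.063) and without dTAGV1 replicate 3 (0.0934).

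NCAPH2 (ENSG00000025770; chromosome 22, 50508216 to 50523472, plus strand), the condensin II kleisin and the only subunit of either condensin outside the 10 genes, was at 15.6, 18.8, 20.3 and 15.8 CPM with DMSO. It was at 21.3, 16, 13.8 and 8.04 CPM with dTAGV1, where replicate 1 was the highest library of all 8 and replicate 4 the lowest. These are sense-strand values, at 34 to 78 counts per library, whereas the opposite strand had 165 to 276 counts. The opposite strand thus held 77% of its stranded counts with DMSO and 79.5% with dTAGV1, and the source of those reads was not tested. On the sense strand the log2 fold change was -0.27 with a 95% interval of -0.69 to 0.14 (edgeR, Benjamini-Hochberg adjusted p = 0.282). That interval spans both no change and a fall like that of SMC1A. Without dTAGV1 replicate 1 it was -0.52 (edgeR, Benjamini-Hochberg adjusted p = 0.0318), and without dTAGV1 replicate 4 it was -0.06 (0.789).

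Of the cohesin genes, SMC1A alone passed the test. SMC1A (ENSG00000072501; chromosome X, 53374149 to 53422728, minus strand) was at 300, 343, 329 and 292 CPM with DMSO and at 197, 172, 210 and 208 CPM with dTAGV1. Spread within each group was small, and the lowest DMSO library lay 1.39-fold above the highest dTAGV1 library. It fell by 0.68 on the log2 scale (SE 0.08, edgeR, Benjamini-Hochberg adjusted p = 4.98e-08). SMC3 (ENSG00000108055; chromosome 10, 110567691 to 110604636, plus strand), its partner in the ring, was at 279, 305, 279 and 314 CPM with DMSO and at 280, 259, 304 and 300 CPM with dTAGV1. Of its dTAGV1 libraries, replicates 1, 3 and 4 lay within the DMSO range and replicate 2 below it. SMC3 had a log2 fold change of -0.04 with a 95% interval of -0.19 to 0.10 (edgeR, Benjamini-Hochberg adjusted p = 0.638).

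RAD21 (ENSG00000164754; chromosome 8, 116845935 to 116874866, minus strand), the mitotic kleisin that separase cleaves at anaphase, was at 464, 615, 566 and 479 CPM with DMSO and at 480, 481, 496 and 527 CPM with dTAGV1. Its dTAGV1 libraries lay inside the range of the DMSO libraries. RAD21 had a log2 fold change of -0.10 with a 95% interval of -0.26 to 0.06 (edgeR, Benjamini-Hochberg adjusted p = 0.303), so that a fall as large as that of SMC1A is outside the interval. STAG1 and STAG2, alternative subunits that bind RAD21 in mitotic cohesin, had log2 fold changes of 0.15 (95% interval -0.04 to 0.33) and 0.03 (-0.13 to 0.18). Neither passed the test (edgeR, Benjamini-Hochberg adjusted p = 0.201 and 0.787). The meiotic subunits SMC1B, STAG3, REC8 and RAD21L1 had 0 to 5 counts in each library and were not tested.

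**Figure D2:**
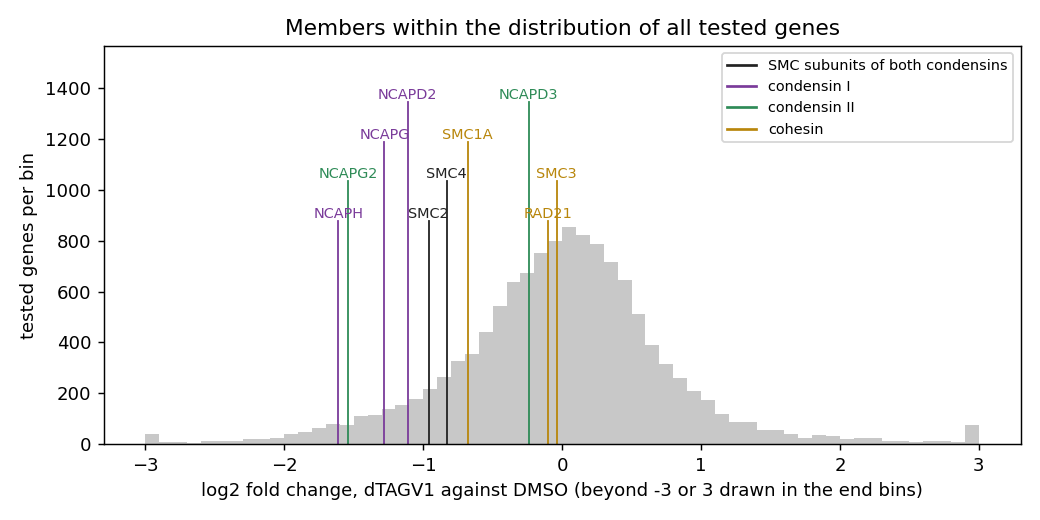
Distribution of log2 fold changes (horizontal axis, dTAGV1 against DMSO) over 12618 tested genes, as genes per bin (vertical axis). Lines mark the 10 genes, coloured by complex, and run from -1.61 for NCAPH to -0.04 for SMC3.

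Because the subunits of a complex are assembled together, the change of 1 subunit relative to another was tested for 6 pairs. The log2 ratio of their CPM (pseudocount 0.5 CPM) was compared between groups by a 2-sided exact permutation test over libraries, whose smallest p is 0.0286 for 4 against 4. After Benjamini-Hochberg adjustment over the 6 pairs no ratio passed 0.05, although the groups did not overlap for 3 of them. With 3 pairs at the smallest p, the adjusted p could be no lower than 0.0571, however large the difference. Not passing therefore says little about these 3 pairs. NCAPH2 relative to NCAPH was higher with dTAGV1 by 1.28 on the log2 scale (exact permutation p = 0.0286, adjusted p = 0.0571), with a mean log2 ratio of -2.31 ± 0.19 under DMSO and -1.03 ± 0.69 under dTAGV1 (SD, n = 4 each). The dTAGV1 spread came from replicate 4, whose log2 ratio was -2.07, close to the highest DMSO value of -2.12. For NCAPD3 relative to NCAPD2 the difference was 0.86 (exact permutation p = 0.0286, adjusted p = 0.0571), from -1.13 ± 0.19 to -0.28 ± 0.14 (SD, n = 4 each). With counts irrespective of strand, where NCAPD2 keeps the few reads given above, that difference was 0.39 (exact permutation, adjusted p = 0.257).

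SMC1A relative to SMC3 went from 0.10 ± 0.15 to -0.54 ± 0.04 on the log2 scale (SD, n = 4 each), a difference of -0.64 (exact permutation p = 0.0286, adjusted p = 0.0571). All dTAGV1 libraries lay between -0.59 and -0.51 and all DMSO libraries between -0.11 and 0.24. The third paralogous pair of the condensins, NCAPG2 relative to NCAPG, differed by -0.26 with overlapping groups and a pooled SD of 0.26 (exact permutation p = 0.257, adjusted p = 0.386). SMC4 relative to SMC2 differed by 0.15 (exact permutation p = 0.343, adjusted p = 0.411). RAD21 relative to SMC3 differed by -0.05 with a pooled SD of 0.15 (exact permutation p = 0.686, adjusted p = 0.686). The paralogues of condensin II and condensin I thus had ratios above their DMSO range for the D and kleisin subunits, and overlapping ratios for the G subunits.

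**Figure D3:**
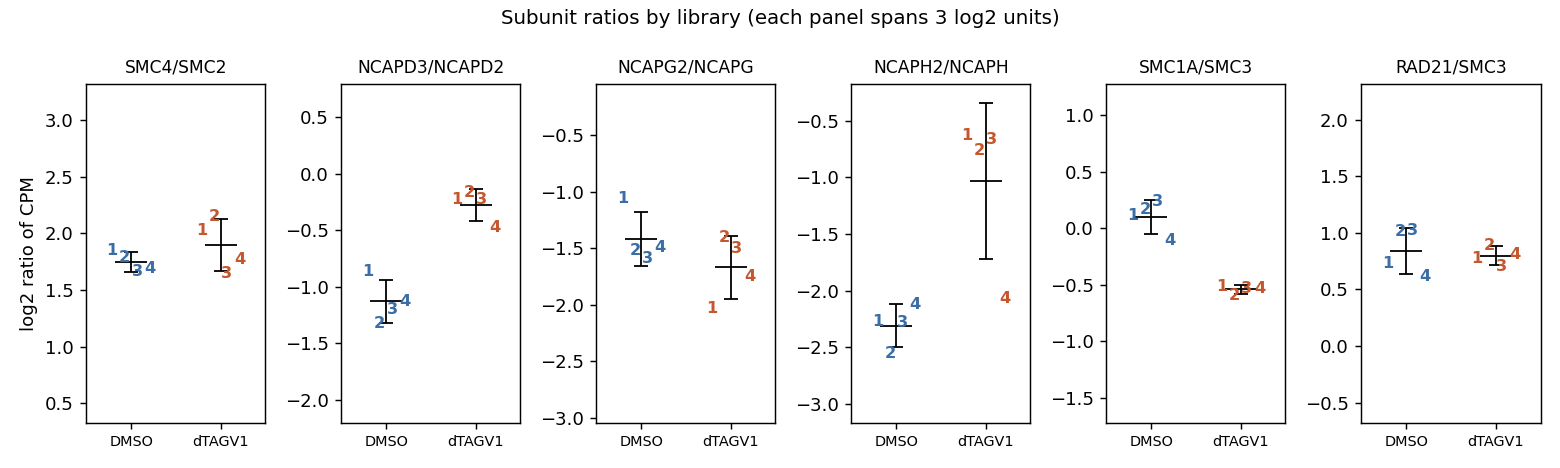
Log2 ratio of CPM (vertical axis, each panel spanning 3 log2 units) for 6 subunit pairs in the DMSO and dTAGV1 libraries. Numerals stand at the value of the replicate they number, and bars show mean and SD of 4 libraries. Groups are apart for NCAPD3/NCAPD2, NCAPH2/NCAPH and SMC1A/SMC3.

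Libraries of 1 group differed among themselves in a pattern that most of the genes shared. With DMSO, replicate 2 was the highest library for 9 of the 10 genes, and for SMC3 replicate 4 was. Replicate 1 was the lowest DMSO library for 6 genes and replicate 4 for the other 4. The ratio of the highest to the lowest DMSO library was 1.79 for NCAPG, 1.63 for SMC2, 1.62 for NCAPH and 1.57 for SMC4, but 1.13 for SMC3 and 1.17 for SMC1A. With dTAGV1, replicate 4 was the highest library for 7 of the 10 genes. That library also had the smallest share of unmapped reads, 20.4%, against 24.9% to 30.3% in the other dTAGV1 libraries. Whether this bears on its values was not tested.

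Lists of cell cycle genes moved with both patterns. Summed over 52 G2/M genes, expression was 7110, 11200, 10100 and 7800 CPM in DMSO replicates 1 to 4 and 4080, 3610, 3800 and 4530 CPM in dTAGV1 replicates 1 to 4. The libraries highest and lowest in this sum with DMSO, replicates 2 and 1, are those most often highest and lowest for the 10 genes. Of 51 tested G2/M genes, 49 fell and 0 rose, with a median log2 fold change of -1.36. Of 43 S phase genes, 38 fell and 1 rose, with a median of -1.20. Their sum was 2970 to 3960 CPM with DMSO and 1680 to 2120 CPM with dTAGV1. Beside both lists, 28.5% of all tested genes fell and 29.4% rose. Reads that lay on no gene in the sense-strand count were 30.1% to 33.7% of uniquely mapped reads with DMSO and 35.9% to 37.4% with dTAGV1. Reads that fit more than 1 gene are not in this share. Mitochondrial mRNA took 4.7% to 5% of counts with DMSO and 5.52% to 5.91% with dTAGV1. The part of these shifts in the changes of the condensin and cohesin genes was not tested.

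**Figure D4:**
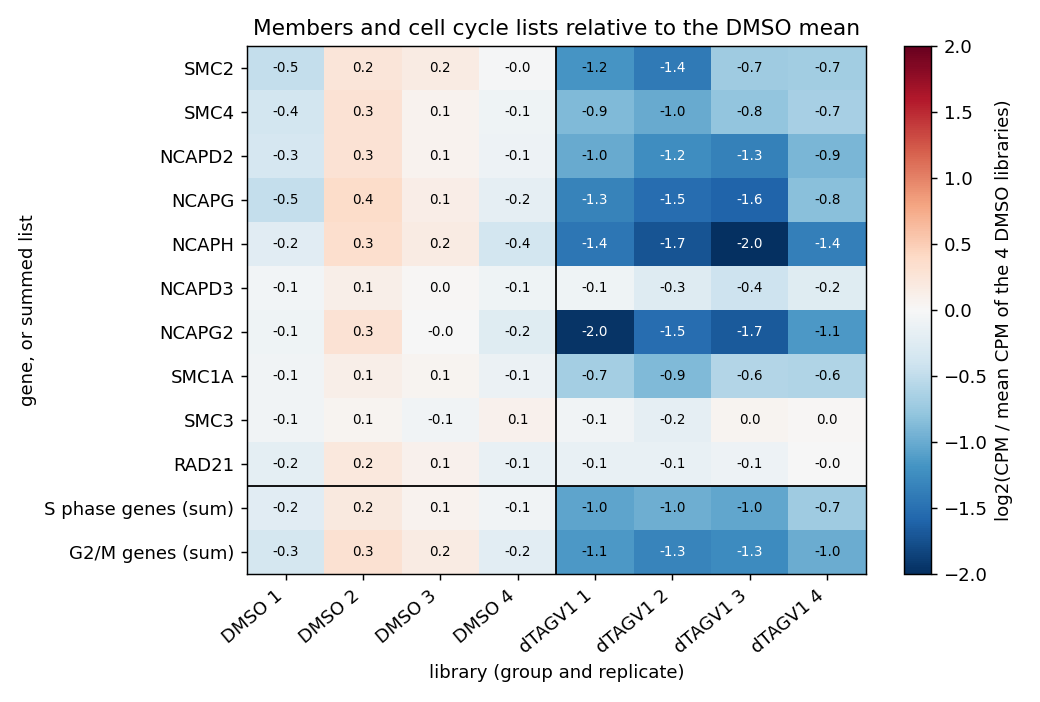
Log2 of CPM relative to the mean of the 4 DMSO libraries (colour scale and printed values) for the 10 genes and the summed S phase and G2/M lists (rows) in each library (columns). Both summed lists and 7 genes are below every DMSO value in all dTAGV1 columns, whereas the SMC3 and RAD21 rows stay within 0.21 of the DMSO mean.

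Of 14 listed genes that control cohesin, 13 were tested, 5 fell, 5 rose and 3 did not pass, with a median log2 fold change of -0.06. Over all tested genes 28.5% fell and 29.4% rose, so the counts of calls alone do not set the regulators apart as a list. By size of change, 4 of the 13 fell by more than 2-fold, against 9.23% of tested genes, and 0 rose as much. CDCA5, which encodes sororin, the protector of cohesin on replicated DNA, had 37.4 ± 9.65 CPM under DMSO and 12 ± 2.32 CPM under dTAGV1 (SD, n = 4 each) and fell by 1.63 on the log2 scale (edgeR, Benjamini-Hochberg adjusted p = 1.29e-07). ESCO2, the acetyltransferase that locks cohesin onto sister chromatids during replication, fell by 1.41 on the log2 scale, with 72.4 ± 15.3 and 27 ± 3.87 CPM. PTTG1, which encodes the separase inhibitor securin, had a log2 fold change of -1.19. SGO2, a shugoshin that protects centromeric cohesin, had one of -1.17, and its relative SGO1 one of -0.71. Of these 5, SGO1 was the 1 whose groups overlapped. Every dTAGV1 library lay below every DMSO library for 25.1% of tested genes. The separase gene ESPL1 was not tested, at means of 1.08 and 0.276 CPM.

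ESCO1, the acetyltransferase that acts on cohesin outside replication, had 66.2 ± 2.32 CPM under DMSO and 119 ± 12 CPM under dTAGV1 (SD, n = 4 each), and rose by 0.85 on the log2 scale (edgeR, Benjamini-Hochberg adjusted p = 9.75e-09). HDAC8, the deacetylase that recycles SMC3, had a log2 fold change of 0.72, and NIPBL, the cohesin loader, one of 0.56. PDS5B and WAPL, listed under release and regulation of cohesin, had log2 fold changes of 0.39 and 0.21. For all 5 the lowest dTAGV1 library exceeded the highest DMSO library, as it did for 3257 of 12618 tested genes. WAPL did not pass under library size scaling (edgeR, Benjamini-Hochberg adjusted p = 0.118), without a filter (0.0739), or without DMSO replicate 1 (0.069) or 3 (0.0518). MAU2, the partner of NIPBL, PDS5A and the loop boundary factor CTCF did not pass, at log2 fold changes of -0.12, -0.06 and 0.05. The acetyltransferase paralogues ESCO1 and ESCO2 thus passed the test in opposite directions.

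**Figure D5:**
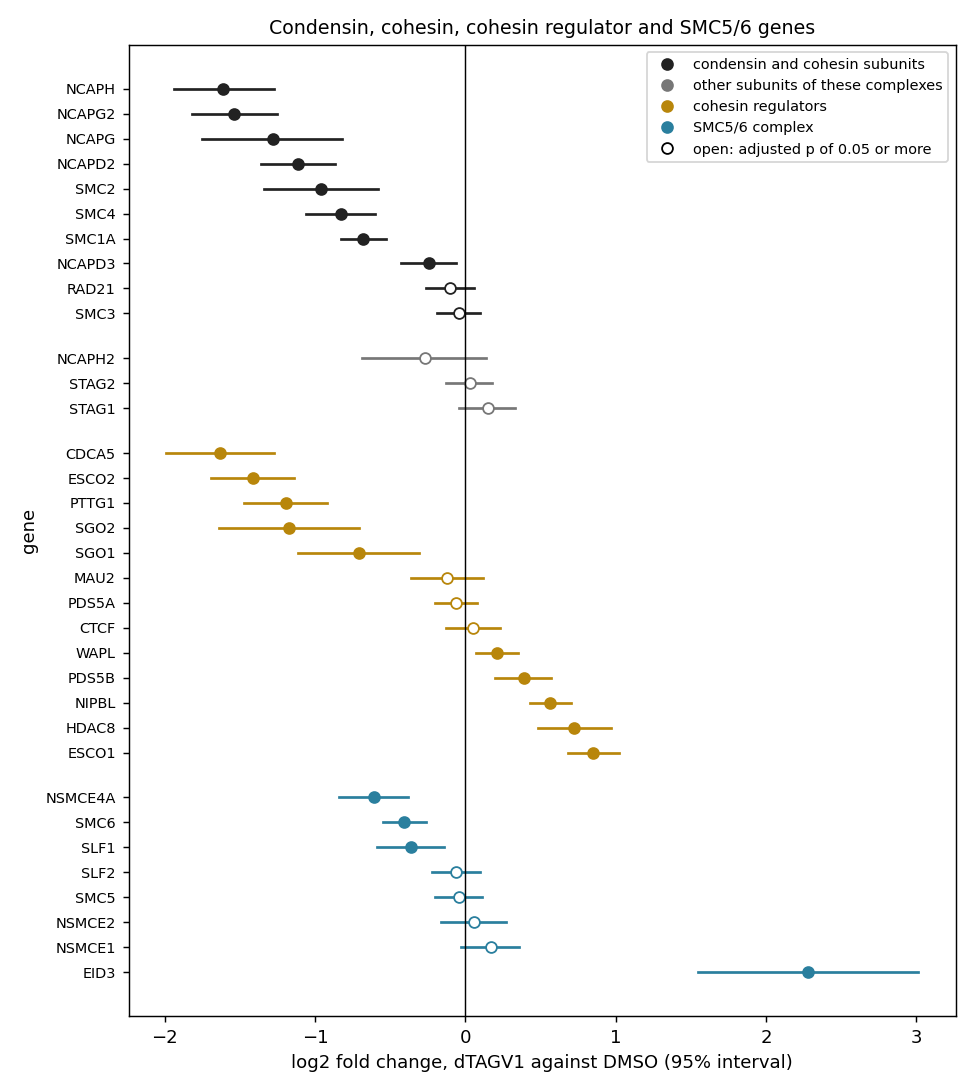
Log2 fold changes of dTAGV1 against DMSO (horizontal axis, points) with 95% intervals (lines) for the tested condensin and cohesin subunits, their regulators and SMC5/6 genes (rows). Filled points passed an adjusted p of 0.05, and cohesin regulators run from -1.63 for CDCA5 to 0.85 for ESCO1.

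The SMC5/6 complex, the third SMC complex of the nucleus, which acts in DNA repair and replication, had 8 tested genes. Of these, 3 fell, 1 rose and 4 did not pass, with a median log2 fold change of -0.05, beside 28.5% lower and 29.4% higher over all tested genes, so the counts do not set the list apart. NSMCE4A, which encodes its kleisin, had the lowest log2 fold change, -0.61, and SMC6 had -0.41 where its partner SMC5 had -0.04. SLF1, a factor that recruits the complex to damage, had -0.36. EID3, a NSMCE4A relative, had 1.33 ± 0.857 CPM under DMSO and 6.66 ± 2.04 CPM under dTAGV1 (SD, n = 4 each), and rose by 2.28 on the log2 scale (SE 0.37, edgeR, Benjamini-Hochberg adjusted p = 1.14e-05). EID3 lies within TXNRD1 on the same strand, and TXNRD1 itself had a log2 fold change of 1.33, so the reads given to EID3 are uncertain. NSMCE3 had 0 counts in all libraries, which allows up to 3 counts in each. It overlaps FAM189A1 on the same strand.

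Genes of the mitotic chromosome other than condensin fell alongside it. Of 14 tested, 12 fell, 1 rose and 1 did not pass, with a median log2 fold change of -1.28, and 7 of the 14 are also in the G2/M list. Among all tested genes, 28.5% fell and 29.4% rose. AURKB, the kinase of the chromosomal passenger complex that promotes condensin loading, had the lowest log2 fold change, -1.86, with 158 ± 39.4 CPM under DMSO and 43.2 ± 9.4 CPM under dTAGV1 (SD, n = 4 each). Its partners CDCA8 and BIRC5 had log2 fold changes of -1.67 and -1.38. TOP2A and MKI67, which encode the mitotic topoisomerase II of the chromosome axis and the Ki-67 coat protein, had -1.10 and -1.36. The mitotic kinases CDK1, PLK1 and BUB1 each had -1.28 and cyclin B1 (CCNB1) had -1.61. TOP2B, the topoisomerase II of interphase, was the 1 gene of the list that rose, by 0.63 on the log2 scale, with means of 78.2 ± 3.66 and 121 ± 2.88 CPM (edgeR, Benjamini-Hochberg adjusted p = 2.28e-07). MCPH1, a condensin II inhibitor, had -0.12 and did not pass (edgeR, Benjamini-Hochberg adjusted p = 0.478).

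The 3′ ends were examined because NUDT21 belongs to CFIm, which binds UGUA (TGTA in DNA letters) upstream of poly(A) sites. In the last 100 bases of 1 principal GENCODE 29 transcript per gene, 7 of the 10 genes held TGTA on the transcript strand, as did 55.5% of 10641 tested protein-coding genes. SMC4 and NCAPH held 3 copies each, SMC2 had 2, and NCAPD2, NCAPG and SMC3 had 0. The poly(A) signal AATAAA was in the last 40 bases for 9 of the 10 genes, SMC3 being the exception, and for 62% of tested protein-coding genes. Below are 30 bases, 5′ to 3′, around the copy nearest to the transcript end, in capitals, of the genes with 3 copies.
NCAPH: gtacacttataaaTGTAtatagaatgctca
SMC4: gtaactgtaaaaaTGTAaacacattattag
Genes with 0 copies included NCAPD2 and NCAPG, which fell by more than 2-fold, and SMC3, which did not pass the test. Over tested protein-coding genes, TGTA was in this window for 55.9% of those that fell, 58.1% of those that rose and 53.5% of the rest. The counts per gene do not say which poly(A) site gave the reads, so the site used may not be the annotated end.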

How the data were processed

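Per the submitters' processing notes, FastQC, fastp, STAR, HTSeq and DESeq2 were used on GRCh38, with no versions or roles given. Libraries were made with a Lexogen QuantSeq forward kit for mRNA 3′ ends, per the labels' protocols. The deposited values are raw read counts per gene in the layout of STAR, irrespective of strand, on the sense strand and on the opposite strand. The sense count was used, and whether PCR copies were removed is not given in the sources used here, so counting error understates the error of a value. The 4 totals of reads given to no gene, with unmapped and multiply mapped reads among them (56.7% to 62.8% of reads), stayed out of library sizes and tests. The deposited tables keep reads that fit more than 1 gene in a total of their own.

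Genes were tested with edgeR 4.0.16 in R 4.3.3 (filterByExpr, TMM, robust quasi-likelihood F test, Benjamini-Hochberg adjustment over all tested genes, threshold 0.05). The standard error is the absolute log2 fold change divided by the square root of F, and 95% intervals span 1.96 standard errors on each side. Members and lists were chosen with earlier results of these data known. Named genes are NUDT21, the 10 members, the remaining subunits, and, of the cohesin regulator, SMC5/6 and mitotic chromosome lists, those changed at least 2-fold and the extremes of each list. Other genes of these lists were named after their values were seen, and so were the promoter motifs and the 3′-end motif chosen. Gene symbols were found for 61481 of 78932 identifiers. Coordinates and overlaps are those of GENCODE 29, which is not stated to be the annotation the authors used. Within-group library pairs differed by more than counting noise (chi-square per degree of freedom 1.89 to 5.65), so no library appeared to be deposited more than once. This does not show separate cultures. Alternatives included DESeq2 1.42.0 and limma-voom (limma 3.58.1), and figures were drawn with matplotlib 3.10.9.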

Additional observations from a re-analysis of the deposited data

Results flagged for a closer look

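SMC4 showed a signal outside the sense counts. On the opposite strand the DMSO libraries had 25, 34, 10 and 29 counts and the dTAGV1 libraries 38, 33, 41 and 66, by replicate number, for a log2 fold change of 0.83 where the sense counts fell (edgeR on opposite-strand counts, Benjamini-Hochberg adjusted p = 0.00598 over 3324 genes, of which 1610 differed). The groups overlapped by 1 library in each. IFT80 and TRIM59 overlap SMC4 on that strand, with log2 fold changes of their own of -0.70 and -1.67. None of the other 9 genes had enough opposite-strand counts to be tested. The opposite-strand counts of NCAPH2, which is outside the 10 genes, are given above.

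In 98 groups of 4 libraries, of 49 genes, 4 had a library far from the other 3, where chance gives about 1 in 20. MAU2 was at 28.1 CPM in dTAGV1 replicate 1, against 25.7 to 26 in the others. PDS5A was at 208 CPM in DMSO replicate 4, against 226 to 228. PDS5B was at 128 CPM in dTAGV1 replicate 3, against 110 to 112. HDAC8 was at 18.6 CPM in DMSO replicate 1, against 23.6 to 24.5. None of these was a condensin or cohesin subunit.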

How the results depend on the processing

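Of the alternative values, 943 were labelled the same as in the main analysis and 13 were not: 8 were weaker, 2 stronger and 3 moved. A gene was the same if its call held, but a count of genes could shift, as from 8 to 7 of the 10. Subunit ratios could not pass under the replicate block or with 1 library left out. Their label there was fixed in advance. No value that passed the test changed direction. With a mean of at least 100 counts, where fewer genes were tested, 4120 of 6369 genes changed, 1989 of them lower, and 3 cohesin regulators fell. Between 7 and 8 of the 10 genes fell in every alternative. The 7 genes other than NCAPD3 that fell kept their calls in all 16 alternatives each. The weaker values were those of NCAPD3 and WAPL given above. The stronger ones were NCAPH2 without dTAGV1 replicate 1, and NSMCE2 with counts irrespective of strand (0.47, edgeR, Benjamini-Hochberg adjusted p = 0.00453). With 1 library left out, 6861 to 7232 genes changed. Library size scaling shifted log2 fold changes by a median of -0.075 and lowered the share of calls that were higher from 50.8% to 43.8%, and the 10 genes kept their directions.

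The replicate numbers are not said to mark a shared culture, so they were not taken to pair the libraries. Deviations of same-numbered libraries correlated at 0.131, -0.0176, 0.0232 and 0.034 across genes. By this correlation, the best dTAGV1 match carried the same number for DMSO replicates 1 and 3, but not for 2 and 4. With the replicate number as a block, 7434 genes changed and 8 of the 10 genes fell. For the subunit ratios, the replicate block left differences of 0.86 (NCAPD3/NCAPD2), 1.28 (NCAPH2/NCAPH) and -0.64 (SMC1A/SMC3), each at an exact permutation p of 0.125, the smallest that 4 pairs allow. Leaving out 1 library gave 0.79 to 0.94, 1.15 to 1.63 and -0.71 to -0.59, where 4 against 3 cannot pass 0.05. The 10 genes had 58 to 2549 counts per library, and libraries of 1 group differed by more than counting noise, so depth alone does not set the error.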
